A study of Mus musculus with 15 samples.

Results

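Chemokine and sphingosine phosphate homing receptors are cell surface proteins that steer lymphocytes between bone marrow, blood and lymphoid organs. The 9 genes described here are Cxcr4, Cxcr5, Ccr2, Ccr6, Ccr7, Ccr9, S1pr1, S1pr2 and S1pr4, taken by symbol from 55335 gene identifiers in the RNA count files. Reads were found for each of the 9, and 5 of them had enough reads to be among the 13077 genes tested. RNA was compared between 3 libraries titled wild type and 3 titled knockout for Msl2, all from cultured mouse pre-B cells. MSL2 is a ubiquitin ligase of a chromatin complex that also holds the histone acetyltransferase MOF. Per the labels, both groups lack SLP65 (the adaptor encoded by Blnk) and received no treatment. The parental cells were a bone marrow clone expanded from 1 cell in medium with interleukin 7, and the knockout line came from them by electroporation of a guide RNA against Msl2. Each genotype is therefore 1 line, and the sources used here give neither sex, age nor strain. The study's other 9 samples, of chromatin, were not analysed here.

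Chemokine receptors and sphingosine 1-phosphate (S1P) receptors couple to heterotrimeric G proteins and turn an extracellular gradient into directed movement. In the B lineage, CXCR4 reads CXCL12 made by marrow stroma and holds progenitors in their niche. CXCR5 reads CXCL13 and brings mature B cells into follicles, CCR7 reads CCL19 and CCL21 and brings lymphocytes into lymph nodes, and S1PR1 senses the S1P of blood and lymph and carries cells out of tissues. Inhibitory G proteins carry most of this signalling, receptor kinases and arrestins switch it off, and RGS proteins shorten it.

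The genotype tags of the labels say the opposite of the titles for the RNA libraries. Groups here follow the titles, so that wild type and knockout mean the libraries with that title and every direction depends on it. Msl2 transcripts were at 96.3 ± 3.6 CPM in wild-type and 110 ± 9.9 CPM in knockout libraries (SD, n = 3 each, adjusted p 0.302), so the gene count does not check the edit. Every knockout library was above every wild-type library for Msl2, as for 9.68% of tested genes. What this says of the titles was not tested. CPM are read counts scaled to a common library size. Blnk was read in both groups too, at 98.3 ± 19 and 112 ± 4.1 CPM (adjusted p 0.563). Pre-B markers were present in every library, with the sum over 15 of them between 3935 and 4157 CPM for wild type and between 3953 and 4039 CPM for knockout. Of these markers Il7r, the receptor chain for the cytokine in the medium, fell from 82.0 ± 12 to 28.1 ± 11 CPM (adjusted p 0.00392), and none of the other 13 tested passed the test. Total counts ran from 14092278 to 20803227 per library. Nothing in the labels says that replicates were separate cultures, so a p-value reflects how far these libraries vary, and that variation may be technical.

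Sequence upstream of the start could be matched for 6 of the 9 genes in the RefSeq promoter table of GRCm38.p6, the assembly behind mm10. Cxcr5, Ccr7 and S1pr1 were not matched. The 250 bases before the start are printed for 3 genes, each on the minus strand and outside the annotated gene span, because they contrast a receptor that rose (Cxcr4), one that was read without a called change (S1pr4) and one that was almost unread (S1pr2). Capitals mark matches to the consensus of NRF1, which is the first capital run in the Cxcr4 window, and to the TATA motif TATAAA, searched on both strands. The TATA match of Cxcr4 overlaps a second match on the other strand, so the capital run is longer than the motif.
Cxcr4, chr1:128592300-128592549: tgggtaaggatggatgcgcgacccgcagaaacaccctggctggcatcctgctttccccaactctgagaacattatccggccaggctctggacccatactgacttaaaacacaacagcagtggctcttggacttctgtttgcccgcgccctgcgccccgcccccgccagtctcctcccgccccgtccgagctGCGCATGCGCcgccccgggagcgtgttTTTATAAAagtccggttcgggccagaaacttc
S1pr4, chr10:81500138-81500387: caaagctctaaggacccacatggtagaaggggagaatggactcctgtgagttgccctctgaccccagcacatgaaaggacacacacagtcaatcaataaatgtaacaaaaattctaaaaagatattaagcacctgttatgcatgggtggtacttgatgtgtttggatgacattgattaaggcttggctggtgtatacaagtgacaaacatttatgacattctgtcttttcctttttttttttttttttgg
S1pr2, chr9:20976794-20977043: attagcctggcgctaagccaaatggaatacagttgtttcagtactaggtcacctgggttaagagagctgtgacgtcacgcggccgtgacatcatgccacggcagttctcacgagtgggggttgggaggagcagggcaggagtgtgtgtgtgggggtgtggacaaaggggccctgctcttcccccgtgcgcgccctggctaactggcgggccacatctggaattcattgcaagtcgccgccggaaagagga

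The Cxcr4 window holds 19 CpG dinucleotides, more than 80.3% of the 32851 windows in the table, with 1 NRF1 match beginning 59 bases before the start. That motif is its own reverse complement and occurs in 0.782% of the windows, and TATAAA in 12.4%. The S1pr4 window holds 0 CpG dinucleotides although the gene was read in every library, and the S1pr2 window holds 14 (more than 70.6% of windows) although the gene had 3 reads in all 6 libraries. The window of Ccr2 lies inside the annotated gene span, 1 of the 2 windows of Ccr6 lies inside and the other ends at the start of the span, and that of Ccr9 holds 3 CpG dinucleotides. A YY1 motif (GCCATNTT, both strands, in 3.91% of windows) was found in none of the 7 windows of these genes, nor was the E-box CACGTG (6.02%) or the forkhead motif GTAAACA (3.17%). A match or its absence describes the letters in these windows and not the binding of a factor.

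Of the 5 tested receptor genes, 2 rose and 1 fell in the knockout, and 2 did not pass the test. Of all genes in edgeR's quasi-likelihood test, 4.59% had a Benjamini-Hochberg adjusted p under 0.05, 1.8% as higher and 2.79% as lower. Cxcr5 fell about 7-fold, Ccr2 rose 5.46-fold and Cxcr4 rose 1.35-fold. The groups did not overlap for these 3 genes, as for 20.9% of tested genes (9.68% with the knockout above and 11.2% with it below), and they overlapped for Ccr7 and S1pr4. The other 4 were left out by the low-count filter, so these counts do not speak for all 9. In RNA from bulk culture, fewer cells with a transcript and less transcript per cell cannot be told apart.

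**Figure D1:**
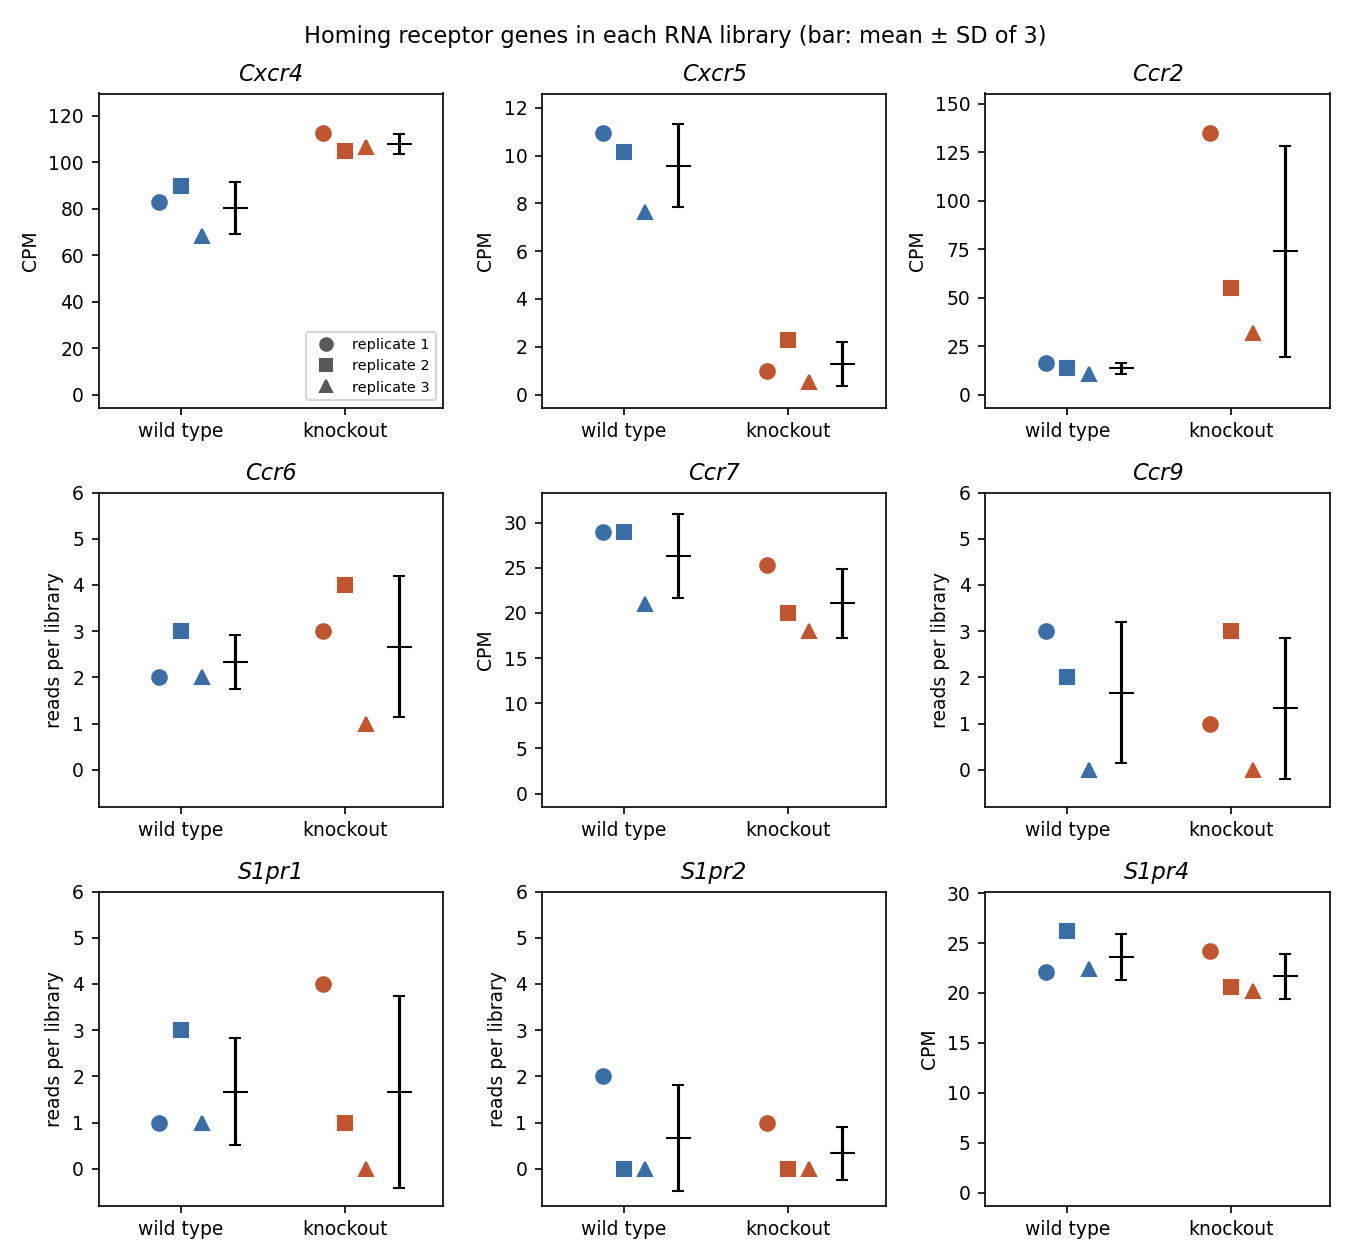
Values of the 9 receptor genes in each RNA library, as CPM for the 5 tested genes and as reads per library for the 4 below the low-count filter; symbols mark the replicate number and the black bars the mean ± SD of 3 libraries. The groups are apart for Cxcr4, Cxcr5 and Ccr2, and the knockout libraries of Ccr2 spread from 31.7 to 135 CPM.

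Cxcr4 (ENSMUSG00000045382.6, chromosome 1, 128588199 to 128592299) had 82.7, 89.7 and 68.0 CPM in the wild type (replicates 1, 2 and 3). The knockout (same order) had 113, 105 and 106 CPM. The lowest knockout library was above the highest wild-type library, and the knockout libraries lay close together while wild-type replicate 3 was the low one. Group means were 80.1 ± 11.1 and 108 ± 4.2 CPM (SD, n = 3 each). On the log2 scale the rise was 0.43 ± 0.10 (SE), its 95% interval ran from 0.21 to 0.65, and the adjusted p was 0.039. The call rested near the threshold and was lost if wild-type replicate 1, wild-type replicate 3 or a single knockout library was left out (adjusted p between 0.0509 and 0.113), with log2 fold changes between 0.32 and 0.46 in these 5 fits. Without wild-type replicate 2 it was kept (log2 0.52, adjusted p 0.0287). Library totals as the scaling (adjusted p 0.0668) and a stricter filter, at log2 CPM 2, (0.0597) ended it too. Over its 15 alternatives the adjusted p ran from 0.000275 to 0.221, and the direction was the same in each.

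Cxcr5 (ENSMUSG00000047880.15, chromosome 9, 44511787 to 44526444) had 11.0, 10.2 and 7.63 CPM in the wild type, in the order of replicates 1, 2 and 3. The knockout had 0.995, 2.30 and 0.528 CPM, from 16, 49 and 8 reads. Every knockout library was below every wild-type library, and knockout replicate 2 held the most of the remaining reads. From 9.58 ± 1.7 CPM the mean went to 1.27 ± 0.92 CPM. The log2 fold change was -2.84 ± 0.38 (SE; 95% interval from -3.69 to -1.98; adjusted p 0.00234). Cxcr5 changed more than 99.4% of tested genes in absolute log2 fold change. Without knockout replicate 2 the log2 fold change was -3.62 (adjusted p 0.000156), and the call held in all 15 alternatives (adjusted p up to 0.0405). Its span overlaps that of Bcl9l on the annotation, and the strand setting of the counting is not given, so reads can be shared between them. Bcl9l itself was at 5.68 ± 1.3 and 4.48 ± 0.29 CPM (adjusted p 0.533).

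Neighbouring genes were compared for each receptor gene, and those of Cxcr5 and Cxcr4 had no call. Within 300 kb, a window chosen after values were seen, 17 genes were tested, of which edgeR and DESeq2 each called 0 and 1 had an unadjusted p under 0.05. Their log2 fold changes ran from -0.34 to 0.95 (median 0.02). The 3 genes tested around Cxcr4 had log2 fold changes from -0.14 to 0.09.

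Ccr2 (ENSMUSG00000049103.14, chromosome 9, 124101918 to 124109140) encodes the receptor for CCL2, best known from monocytes. Its 3 wild-type libraries held 16.3, 13.8 and 10.5 CPM, again by replicate number. The knockout libraries held 135, 54.8 and 31.7 CPM. All knockout libraries exceeded all wild-type libraries, but the knockout libraries differed 4.26-fold among themselves. The mean rose from 13.5 ± 2.9 to 73.9 ± 54 CPM. This is 2.45 ± 0.45 (SE) on the log2 scale (95% interval from 1.46 to 3.44), and the adjusted p was 0.0108. Without knockout replicate 1 the log2 fold change was 1.69 (adjusted p 0.00505), and the call held in all 15 alternatives (adjusted p up to 0.0487). Among 9570 well-read genes (mean log2 CPM 2 or above), the median ratio of the highest to the lowest knockout library was 1.14. In 11 of them, Ccr2 included, this ratio was as large as that of Ccr2 or larger. Cxcr5 was not in this set, and its knockout ratio was 4.36, from 8 to 49 reads.

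Myeloid cells are a known source of Ccr2 transcripts, and their markers were near or at 0. Of 14 myeloid markers, 7 had no read in any library, among them Lyz2, Elane, Ly6c2 and S100a8. The sum over all 14 ranged from 1.53 to 2.05 CPM across wild-type libraries and from 0.798 to 2.61 CPM across knockout libraries. Of the 14 T and NK cell markers, 3 had no read in any library (Thy1, Nkg7 and Ncr1). The sum over all 14 ranged from 2.72 to 6.26 CPM (wild type) and from 3.63 to 4.79 CPM (knockout). What these markers say of the rise of Ccr2 was not tested.

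Ccr2 lies in a cluster of chemokine receptor genes on chromosome 9. Within 300 kb of it 6 other genes were tested, and none passed in edgeR. DESeq2 called 1, and 2 had an unadjusted p under 0.05. The gene that DESeq2 called was Ccr1, a receptor of the same family, named here after its values were seen. Ccr1, 133.2 kb away, was at 0.918, 0.790 and 0.663 CPM (wild type) and 5.41, 1.92 and 1.12 CPM (knockout; log2 fold change 1.82 ± 0.55, adjusted p 0.103). As for Ccr2, knockout replicate 1 was the high library, and the groups did not overlap. Ccr1 passed the test in 4 of 14 alternatives (without a filter, with DESeq2, with the replicate block and without knockout replicate 3). Reads that match more than 1 receptor gene of the cluster may have been split or dropped, Ccr2 included, since the sources used here do not say how such reads were handled.

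Ccr7 (ENSMUSG00000037944.8, chromosome 11, 99144199 to 99155077) was at 29.0, 29.0 and 21.0 CPM (wild type) and at 25.3, 20.0 and 18.0 CPM (knockout). The groups overlapped, through wild-type replicate 3 and knockout replicate 1. Group means were 26.3 ± 4.6 and 21.1 ± 3.8 CPM. The log2 fold change of -0.32 ± 0.16 (SE) had an adjusted p of 0.38, and its 95% interval, from -0.67 to 0.03, holds 0. The test was missed in all 15 alternatives, with adjusted p from 0.0997 to 0.912.

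S1pr4 (ENSMUSG00000044199.6, chromosome 10, 81497745 to 81500137) is an S1P receptor of blood and lymphoid cells. It was at 22.1, 26.2 and 22.4 CPM (wild type) and at 24.2, 20.6 and 20.2 CPM (knockout). The groups overlapped, and each stayed within a narrow band. Group means were 23.6 ± 2.3 and 21.7 ± 2.2 CPM. The log2 fold change was -0.12 ± 0.11 (SE; 95% interval from -0.37 to 0.13; adjusted p 0.716).

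The other 4 receptor genes were almost unread. Ccr6 (ENSMUSG00000040899.14), the receptor for CCL20, had 2, 3 and 2 reads in the wild-type replicates and 3, 4 and 1 in the knockout replicates. Ccr9 (ENSMUSG00000029530.16), the receptor for CCL25, had 3, 2 and 0 reads and then 1, 3 and 0. S1pr1 (ENSMUSG00000045092.8), the receptor for exit from tissues, had 1, 3 and 1 reads and then 4, 1 and 0. S1pr2 (ENSMUSG00000043895.6), which restrains migration, had 2, 0 and 0 reads and then 1, 0 and 0. None exceeded 0.249 CPM in any library, and a library with 0 reads allows a level of up to between 0.141 and 0.212 CPM (3 reads, for counting error only). A difference between the groups was therefore not detectable at this depth for Ccr6, Ccr9, S1pr1 and S1pr2. Without the low-count filter these 4 entered the fit, where their adjusted p ran from 0.884 to 0.995. Plasmacytoid dendritic cells are a textbook site of Ccr9. Of 8 of their markers 6 were tested and 1 fell, with sums between 364 and 430 CPM for wild type and between 365 and 412 CPM for knockout, and Siglech had no read in any library. Most of the sum came from Irf8, Ptprs and Tcf4, which B cells express too, and what these markers say of Ccr9 was not tested. Transcript lengths were not at hand, so levels of different receptor genes are not ranked against each other.

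Called neighbours within 300 kb were found for Ccr7, S1pr1 and S1pr4, each named here after its values were seen. Around Ccr7 9 genes were tested, and 3 rose and 1 fell. Rapgefl1, 291.2 kb away, fell from 6.32 ± 0.88 to 2.17 ± 0.39 CPM (adjusted p 0.00332), a call held in all 15 alternatives. Tns4, the nearest of the 4 at 54.9 kb, rose from 0.393 ± 0.15 to 1.90 ± 0.35 CPM (adjusted p 0.00671). Its reads were few, at 4, 10 and 5 in the wild type and 37, 37 and 25 in the knockout. Tns4 entered the test through its knockout libraries, so the size of its rise rests on few wild-type reads. The keratin genes Krt28 and Krt10 rose too, by 2.20 and 1.09 on the log2 scale (adjusted p 0.0398 and 0.0139). Krt28, which also entered the test through its knockout libraries, had 2, 16 and 3 reads in the wild type and 34, 40 and 32 in the knockout. It was called in 7 of 14 alternatives, and on leaving out a single library its call held for wild-type replicate 2 alone (log2 3.51, adjusted p 0.00481). That fit sets the knockout against libraries with 2 and 3 reads, so its fold change has little to rest on. Krt10 was called in 10 of 15 and lost its call on leaving out wild-type replicate 1, wild-type replicate 2 or knockout replicate 3. Ccr7 itself did not pass the test.

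Around S1pr1 4 genes were tested and 2 fell, Slc30a7, a zinc transporter (log2 -0.43, adjusted p 0.0239), and Extl2 (log2 -0.56, adjusted p 0.0468). These calls were made in 7 and 5 of 15 alternatives. On leaving out a single library, Slc30a7 kept its call for wild-type replicate 3 alone and Extl2 for none. Around S1pr4 1 of 25 tested genes fell, which was Gna11 at 28.6 kb. In edgeR 0 of the 4 genes tested around Ccr6, the 8 around Ccr9 and the 15 around S1pr2 were called. An unadjusted p under 0.05 was found for 0, 1 and 1 of them, and DESeq2 called 0, 1 and 0, where the window of Ccr9 shares Ccr1 with that of Ccr2.

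**Figure D2:**
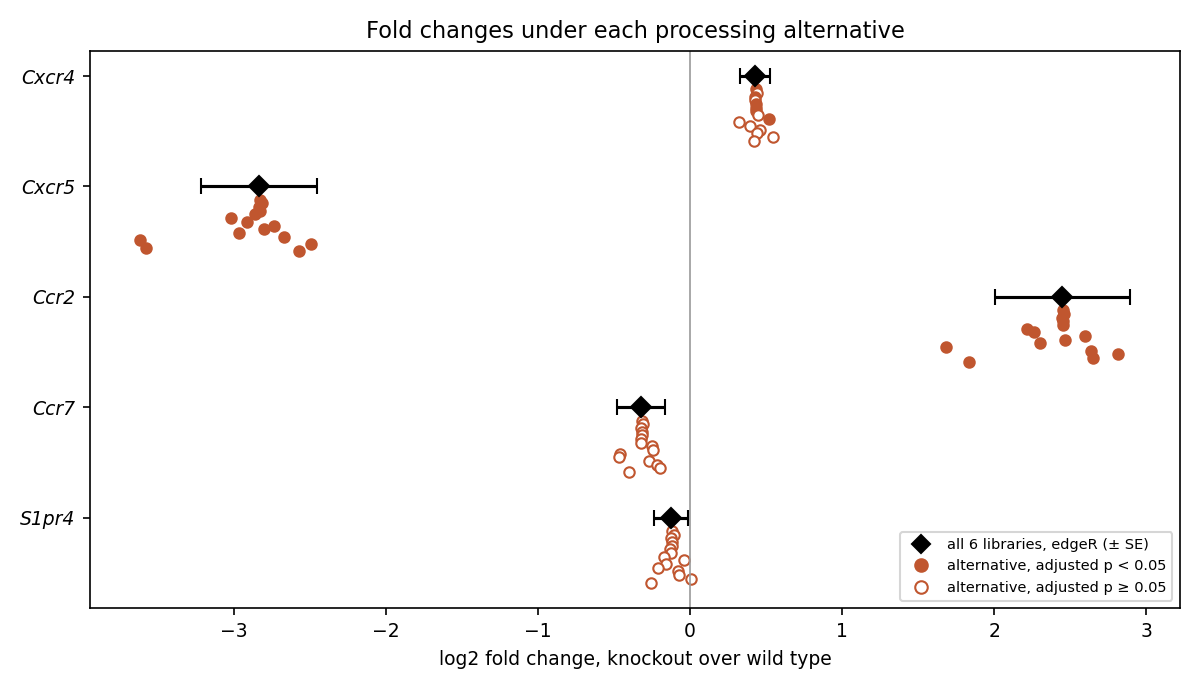
Log2 fold change (knockout over wild type) of the 5 tested receptor genes with all 6 libraries (black diamonds, ± SE) and under each of 15 processing alternatives (circles, filled where the adjusted p is under 0.05). Cxcr5 stays between -3.62 and -2.49 and Ccr2 between 1.69 and 2.81 with every circle filled, whereas Cxcr4 has 9 open circles and those of Ccr7 and S1pr4 are all open.

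The library that stood high differed between the receptors. Knockout replicate 1 was the highest knockout library for 4 of the 5 tested receptor genes, all but Cxcr5, against 36.5% of all tested genes. The same library was the highest for 12 of the 18 tested genes in the lists of other chemokine and lipid receptors. Whether something about that library moves these genes was not tested. Without it Cxcr5 and Ccr2 kept their calls in edgeR and Cxcr4 lost its call (adjusted p 0.113). The log2 fold change of Ccr2 was then 1.69, against 2.45 with all libraries. In a fit of replicates 2 and 3 alone, tried after values were seen, the log2 fold changes were -2.57 for Cxcr5, 1.84 for Ccr2 and 0.42 for Cxcr4 (adjusted p 0.0405, 0.0137 and 0.221).

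Genes with a pattern like that of a receptor were ranked among 8907 protein-coding genes by the root mean square difference of centred log2 CPM over the 6 libraries, as a description. For Cxcr4 the nearest were Smpd3 (a neutral sphingomyelinase, 0.0527), Slc25a45 (a mitochondrial carrier, 0.054) and Lrsam1 (a ubiquitin ligase, 0.0544). For Cxcr5 the nearest lay farther off and were Psat1 (an enzyme of serine synthesis, 0.367), Ddn (0.372) and Jag2 (a Notch ligand, 0.375). Psat1 was at 277 ± 11 and 36.4 ± 32 CPM, and like Cxcr5 it was highest in replicate 2 among the knockout libraries (17.2, 72.9 and 18.9 CPM). Ddn shared this (2.18, 9.11 and 2.57 CPM), as did Jag2 (1.99, 2.53 and 0.792 CPM). For Ccr2, added after its values were seen, they were Crisp3 (0.471), Ahnak (0.49) and Rab44 (0.501), each highest in knockout replicate 1.

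Beyond these receptors, 9 lists of the same pathway held 133 genes, of which 96 were tested. In these lists 5 genes rose and 3 fell, or 8.33% of those tested, against 4.59% of all tested genes. Without 1 library at a time the counts ran from 3 to 10 for genes that rose (3 without knockout replicate 1, 10 without knockout replicate 3). They ran from 1 to 2 for genes that fell, with 1 without any 1 wild-type library or without knockout replicate 3. DESeq2, added for the lists after values were seen, called 10 higher and 5 lower, against 6.07% of all genes it tested. The median log2 fold change over all tested genes was 0.004.

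Of 18 other chemokine receptors 7 were tested and 1 rose, with a median log2 fold change of 0.91. Ackr2, a decoy that takes up inflammatory CC chemokines without G protein signalling, was at 1.27, 1.47 and 0.929 CPM (wild type) and at 14.1, 4.93 and 4.16 CPM (knockout). Knockout replicate 1 was again high, and the groups did not overlap. Its log2 fold change was 2.64 ± 0.48 (adjusted p 0.0104), and 1.88 without knockout replicate 1 (adjusted p 0.00823). Ccr3, Cxcr1, Cxcr3, Ackr1 and Ackr3 had no read in any library.

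Of 18 other lipid receptors 11 were tested, 1 rose and 1 fell (median 0.22). Gpr34, a lysophosphatidylserine receptor, was at 1.41, 1.58 and 0.863 CPM and then at 9.02, 4.27 and 4.88 CPM, a log2 fold change of 2.22 ± 0.35 (adjusted p 0.00532). Gpr55, a receptor for lysophosphatidylinositol, was at 2.47, 1.80 and 2.85 CPM and then at 0.311, 0.235 and 0.066 CPM, a log2 fold change of -3.46 ± 0.44 (adjusted p 0.00185). Both calls held in all 14 alternatives in which these genes were tested, and the filter at log2 CPM 2 left both out. Gpr55 entered the test through its wild-type libraries. In knockout replicate 3 it was below the 0.198 CPM that 3 reads make there, so the size of its fall rests on few knockout reads.

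Ligands for the receptors were not read, apart from that of CCR9. Of the 9 ligand genes 8, among them Cxcl12, Cxcl13 and Ccl2, had no read in any library. Ccl25 was at 6.98 ± 1.5 and 6.99 ± 2 CPM (adjusted p 0.995). Among 9 tested genes of S1P and ceramide turnover edgeR called 0 and DESeq2 1, and 2 had an unadjusted p under 0.05 (median 0.08). Sgpl1, the lyase that breaks S1P down, was at 59.2 ± 7.9 and 76.1 ± 1.6 CPM (adjusted p 0.0673). Asah1, an acid ceramidase, was at 68.3 ± 8.4 and 58 ± 2.3 CPM (adjusted p 0.265).

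Of the 8 tested genes of G protein coupling (7 G alpha genes and the chaperone gene Ric8a) 1 fell (median -0.04). This was Gna11, of the Gq class, from 28.6 ± 0.42 to 22.2 ± 0.8 CPM (adjusted p 0.0412), a call lost on leaving out a single library, whichever it was (adjusted p between 0.0762 and 0.118), and with library totals (0.0635). Of 14 tested genes that switch receptors off, 2 rose and 12 had positive log2 fold changes (median 0.16). The 14 ran from -1.18 (not called) to 0.90 (Rgs2), and the median over all tested genes was 0.004. Rgs2 was at 63.2, 65.8 and 39.5 CPM and then at 113, 98.1 and 104 CPM, a log2 fold change of 0.90 ± 0.16 (adjusted p 0.00963). Rgs18 went from 24.3 ± 1.5 to 34.3 ± 3.4 CPM (adjusted p 0.0196), a call lost on leaving out knockout replicate 1 or either of wild-type replicates 1 and 2.

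In the list of 22 tested migration effectors edgeR and DESeq2 each called 0, and 5 had an unadjusted p under 0.05 (median 0.02). Pik3cd, a phosphoinositide kinase subunit of leukocytes, was at 799 ± 69 and 904 ± 26 CPM (adjusted p 0.354), and Coro1a, an actin regulator, at 492 ± 26 and 503 ± 40 CPM (0.928). Of 10 adhesion partners 1 rose and 1 fell (median 0.01). The integrin chain Itga4, which pairs with Itgb1 to bind VCAM1, was at 96.2, 86.7 and 66.9 CPM and then at 133, 148 and 108 CPM (log2 0.64 ± 0.14, adjusted p 0.0325). Itgb2, the beta chain of LFA-1, went from 50.6 ± 1.1 to 38.9 ± 2.6 CPM (adjusted p 0.0257). The call of Itga4 was lost when replicate 2 or 3 of the wild type, or 1 or 2 of the knockout, was left out, and that of Itgb2 when any 1 wild-type library or knockout replicate 2 or 3 was.

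Among 14 tested transcription factors linked to these receptor genes edgeR called 0 and DESeq2 2, and 2 had an unadjusted p under 0.05 (median 0.04). Pou2af1, the coactivator OBF1 of octamer factors in B cells, was at 528 ± 22 and 428 ± 38 CPM (adjusted p 0.0745). Myc was at 225 ± 13 and 205 ± 34 CPM (0.673). Foxo1, named after its values were seen as a factor known to act on homing receptor genes, was at 39 ± 13 and 62.4 ± 1.7 CPM (0.0741) and passed the test in 5 of its 15 alternatives.

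**Figure D3:**
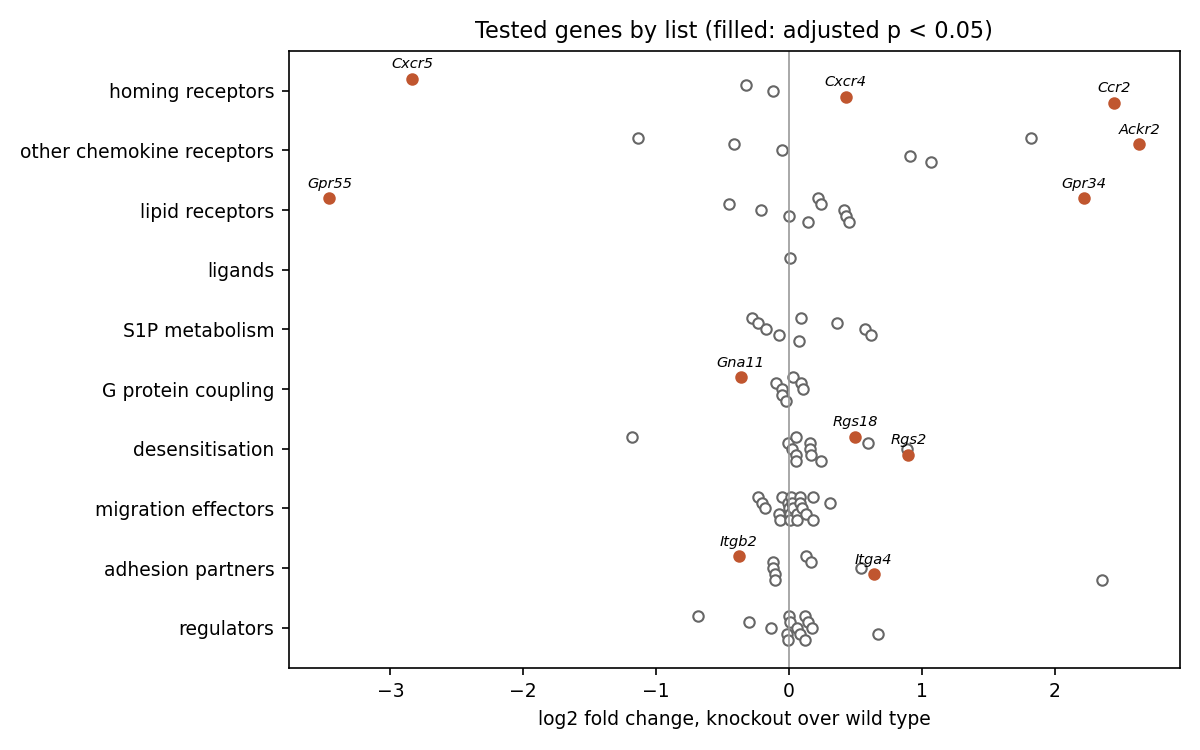
Log2 fold change (knockout over wild type) of each tested gene, by list; filled points passed the test at an adjusted p under 0.05 and carry their symbol, and vertical offsets within a row have no meaning. Among the filled points, Cxcr5 and Gpr55 lie below -2, and Ccr2, Ackr2 and Gpr34 lie above 2.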

How the data were processed

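RNA of 6 libraries was analysed, as 1 count per gene and library, deposited by the authors without normalisation per the file headers. Per the labels' protocols, total RNA was depleted of ribosomal RNA. Among the tools in the submitters' processing notes are limma, featureCounts 2.0.0 and STAR 2.5.3a, and the build is mm10. No role is stated, nor the annotation release, the strand setting or how multiply matching reads were treated.

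Symbols were matched for 55154 of 55335 identifiers. Genes were kept by filterByExpr, then TMM scaling and the quasi-likelihood test of edgeR 4.0.16 (R 4.3.3, no covariate) were applied, with Benjamini-Hochberg adjustment over 13077 genes. CPM use the scaled library sizes and values are mean ± SD of 3 libraries. The SE comes from the fold change and the F statistic. Scripts were tested on simulated counts. Replicates differed by more than sampling noise, with chi-square per degree of freedom between 6.53 and 17.5. Intervals and floors cover counting error only where they rest on reads.

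The 9 genes and the lists were chosen with earlier results of these data known. Of the lists, called members were named, and otherwise up to 2 with the highest mean CPM. Others are marked. Positions come from RefSeq (GRCm38.p6). Alternatives were RLE scaling, library totals, 2 filters, DESeq2 1.42.0, limma-voom 3.58.1, a replicate block and leaving out libraries. The summed CPM of mature B cell, plasmacytoid dendritic and stromal or endothelial marker lists stand under Other observations. Levels per transcript length could not be computed, since transcript lengths were not used here. Some results on genes of the lists are not reported here.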

Additional observations from a re-analysis of the deposited data

How the results depend on the processing

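Of the 5 tested receptor genes, Cxcr5, Ccr2, Ccr7 and S1pr4 stayed on their side of the threshold in all 15 alternatives, and Cxcr4 in 6 of 15. The number of receptor genes that rose was 2, and it was 1 with library totals only and with the filter at a mean log2 CPM of 2, where Cxcr4 missed the threshold. It ran from 1 to 2 without 1 library at a time. Across all genes, 235 rose and 365 fell. Without a low-count filter 482 rose and 721 fell, and with the filter at a mean log2 CPM of 2, 232 fell. Without 1 library at a time, between 138 and 227 rose and between 242 and 316 fell, and in the pathway lists between 3 and 10 rose and 1 to 2 fell. In the pathway lists, 17 rose and 6 fell without a low-count filter, 3 rose with the filter at log2 CPM 2, and 10 rose and 5 fell with DESeq2, all added after values were seen. Without the filter the prior degrees of freedom of edgeR went from 6.15 to infinity, so that each gene was given the spread of the trend and its own spread between libraries was not used. Adjusted p-values of that fit (2.79e-100 for Ccr2) are therefore no measure of how firm a call is. Leaving out both libraries numbered 2 or both numbered 1 was chosen after values were seen. Without those numbered 2, 224 genes fell, 1 receptor gene rose and 1 list gene fell. Without those numbered 1, 92 genes rose and 184 fell, 1 receptor gene rose, and 2 list genes rose and 1 fell. S1pr4, not called in any fit, was at -0.12 with all libraries and at 0.0049 without those numbered 2. Fits without libraries hold fewer samples, and where else a call changed the cause was not tested.

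Same-numbered libraries deviated together unevenly, with correlations of their deviations from the group means of 0.03, 0.21 and 0.4 for numbers 1, 2 and 3. Of the 6 libraries, 4 correlated best with their own number. Whether the numbers pair the samples was not settled by this, and the main fit did not pair them. With the replicate block, 381 genes rose and 565 fell, and the calls of the 5 tested receptor genes were the same (Cxcr4 adjusted p 0.0214, Cxcr5 0.0023, Ccr2 0.00222, Ccr7 0.0997 and S1pr4 0.584). In the pathway lists 14 rose and 5 fell with the block, and Ccr1 and Foxo1 passed the test (adjusted p 0.0445 and 0.0417). Levels per transcript length were not computed.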

Other observations

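The sum over 8 mature B cell markers ranged from 216 to 297 CPM in the wild type and from 278 to 411 CPM in the knockout. Of its 6 tested genes Cd22, an inhibitory coreceptor, rose from 63.4 ± 4.9 to 88.2 ± 6.4 CPM (adjusted p 0.0104), and Cd86 had no read in any library.

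The 8 plasmacytoid dendritic cell markers summed to between 364 and 430 CPM in the wild type and between 365 and 412 CPM in the knockout, and of the 6 tested Ptprs fell from 115 ± 12 to 71.6 ± 10 CPM (adjusted p 0.00648). B cells also express several of them, such as Tcf4 and Irf8. The 10 stromal and endothelial markers summed to between 103 and 123 CPM and between 115 and 131 CPM, and 5 of them had no read in any library (Col3a1, Dcn, Pdgfra, Pdgfrb and Kdr). Only 1 of the 10 passed the low-count filter. These sums therefore rest mainly on 1 gene and do not speak for the list.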
